A study of Ovis aries with 36 samples.

Results

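In the sheep, 60 genes were expressed in both the pars tuberalis and the pineal gland and much less in the hypothalamus of the same rams. They were chosen on CPM, the count of a gene divided by the total count of its library, times 1000000. A gene was taken when its medians over 12 pars tuberalis libraries and over 12 pineal libraries were both at least 5 CPM, both at least 4 times the hypothalamus median, and within 3-fold of each other. Of the 26478 gene IDs in the counts, 60 met this rule. All 60 passed the filter on low counts that was used for tests, which left 16773 genes. The tissue levels, the folds over the hypothalamus and the ratio of the 2 tissues chose these genes, so they are given as a description, with no test.

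The pineal gland is a neuroendocrine organ at the roof of the diencephalon that makes melatonin at night under the control of the circadian clock. The pars tuberalis is a thin layer of the anterior pituitary that wraps the pituitary stalk below the hypothalamus. It carries a high density of melatonin receptors and turns the length of the night into a seasonal signal to the hypothalamus and the pituitary. In seasonal breeders such as sheep this route times reproduction. The hypothalamus, whose neurons release gonadotrophin-releasing hormone, is the brain tissue against which the genes were selected.

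The samples came from 12 adult rams of the Rasa Aragonesa breed, and each ram gave 1 library per tissue, 36 in all. Animals 1 to 6 were labelled active in their sexual behaviour and animals 7 to 12 not active, here called inactive, which makes 6 groups of 6 libraries. No treatment, genotype or time of sampling is given in the sources used here. The study asked which genes differ with sexual behaviour, with state as the primary factor and tissue as the secondary one. Gene IDs are not paired with names in the counts and none matched the reference table, so the genes are called by their IDs and the usual cell type markers could not be looked up. The tissues were dissected whole. In such bulk samples, fewer cells of a type and less RNA per cell cannot be told apart.

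Total counts, divided by 1000000, were 25.2 to 72.95 for the pineal libraries, 22.6 to 35.4 for the pars tuberalis and 19.3 to 44.3 for the hypothalamus. As a check of the tissue labels, genes restricted to 1 tissue were taken from these same libraries (a median of at least 20 CPM and at least 50 times both other medians), which gave 32 genes for the hypothalamus, 47 for the pars tuberalis and 67 for the pineal gland. Each library had the genes of its own tissue at 57.5% or more of their median. Of the hypothalamus libraries, that of active animal 4 stood apart, with the pars tuberalis genes at a median of 15.6% of their own level, against at most 1.78% in the other 11. The pineal library of inactive animal 10 held hypothalamus genes at 9.14%, against at most 1.54% in the other 11 pineal libraries. The pars tuberalis library of inactive animal 7 had the lowest level of the pars tuberalis genes, 58.7%.

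The rule left few genes. Medians of at least 5 CPM in both tissues were found for 10986 genes, and 86 of these were at least 4 times the hypothalamus median in both. A further 26 then dropped out because the pars tuberalis and the pineal gland differed by more than 3-fold, 6 with the higher level in the pars tuberalis and 20 with the higher level in the pineal gland. The same rule applied to the other pairs of tissues gave 325 genes for the hypothalamus with the pineal gland and 177 for the hypothalamus with the pars tuberalis. The smallest fold among the 60 was 4.00 (ENSOARG00020005308), and the largest among genes left out by that threshold alone was 3.96. The lowest qualifying median was 5.18 CPM (ENSOARG00020016921), and the nearest excluded one was 3.62 CPM. The largest ratio between the 2 tissues was 2.96 inside the rule and 3.06 outside it. Folds under 4.5 were held by 11 of the 60, and 24 genes outside had folds of 3.5 to 4.

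Most of the 60 were of moderate abundance. The median over the genes was 32.8 CPM in the pars tuberalis, 37.1 CPM in the pineal gland and 3.18 CPM in the hypothalamus. CPM also follow transcript length, which was not known here, so levels are compared within a gene and not between genes. The lower of the 2 medians lay between 5 and 20 CPM for 24 genes, between 20 and 100 for 28 and at or above 100 for 8. In the hypothalamus, 16 genes had a median under 1 CPM, 28 lay between 1 and 10 and 16 reached 10 or more. Expression in the hypothalamus was therefore low for some of the genes and plain for others. The fold of the lower median over the hypothalamus had a median of 6.68. It was 4 to 6 for 29 genes, 6 to 10 for 9, 10 to 30 for 13, and at least 30, or without a finite value, for 9.

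**Figure D1:**
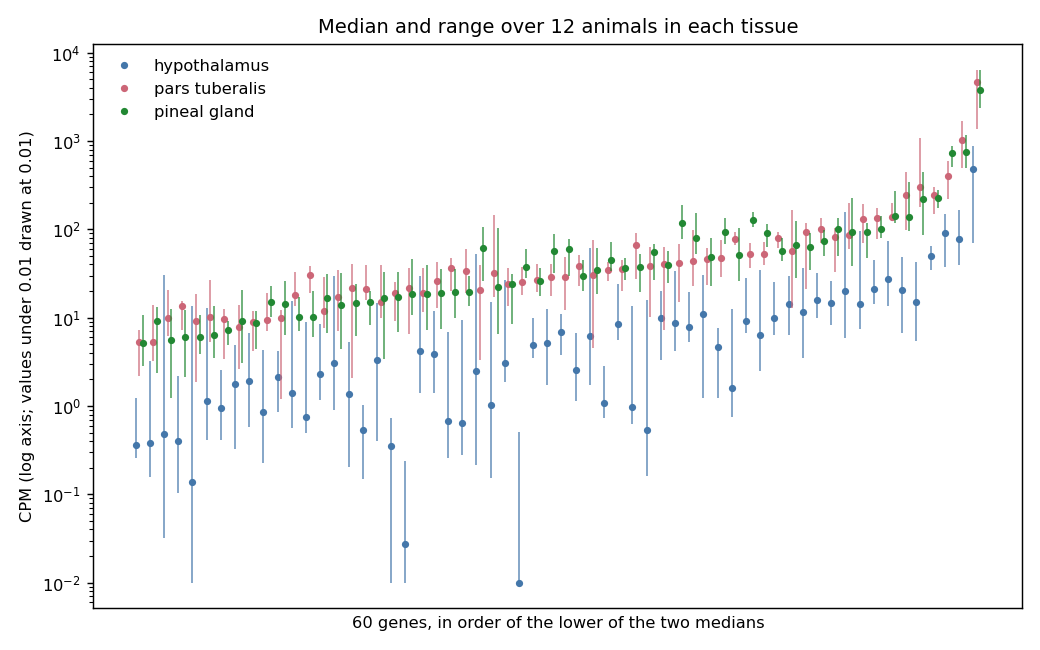
Each of the 60 genes has its median (point) and range (line) over 12 animals in each of the 3 tissues, in CPM on a log axis, ordered by the lower of the pars tuberalis and pineal medians. The pars tuberalis and pineal points lie close together above the hypothalamus point, while the lines of the hypothalamus reach into those of the other tissues for 29 genes.

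The genes farthest from the hypothalamus were almost absent there. ENSOARG00020008315 had 23 counts in all 12 hypothalamus libraries together, with 8 of the libraries at 0 and the highest, that of animal 4, at 0.514 CPM. Its pars tuberalis libraries ran from 18.0 to 37.7 CPM around a median of 25.5, and its pineal libraries from 28.2 to 59.9 around 37.6. The lowest of those 24 libraries was thus far above the highest from the hypothalamus. ENSOARG00020016974 had 18 counts over the 12 hypothalamus libraries, the highest at 0.240 CPM, against a pineal range of 10.6 to 45.6 CPM (median 18.6) and a pars tuberalis range of 6.55 to 36.7 CPM (median 21.7). Every pars tuberalis and pineal library lay above every hypothalamus library for 31 of the 60 genes, and for 44 once the hypothalamus library of animal 4 was set aside. The rule on the medians of these same libraries favours such a separation, and the share over all genes is not given here.

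A single gene carried much of the reads. ENSOARG00020018670 supplied 44.1% of the summed counts of the 60 in the hypothalamus, 46.2% in the pineal gland and 49.7% in the pars tuberalis. It ran from 1353 to 6309 CPM in the pars tuberalis, with a median of 4655. Pineal values were 2343 to 6428 CPM (median 3798), and hypothalamus values 70.9 to 888 CPM (median 488). The hypothalamus overlapped neither of the other tissues at this gene, while the pars tuberalis and pineal ranges overlapped each other. Inactive animal 7 (1353 CPM) was far below the other pars tuberalis libraries, of which the next was 2453 CPM in active animal 6. ENSOARG00020025738 came next in counts, with medians of 78.0 CPM in the hypothalamus, 752 CPM in the pineal gland and 1032 CPM in the pars tuberalis. Its highest hypothalamus library, animal 4 at 168 CPM, remained below its lowest pineal library, at 490 CPM. Together the 60 genes took 0.0489% to 0.234% of the counts in the hypothalamus, where animal 4 had the highest share, 0.667% to 1.14% in the pineal gland and 0.562% to 1.11% in the pars tuberalis.

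Between the pars tuberalis and the pineal gland the genes leaned neither way as a group. The median was higher in the pars tuberalis for 34 and in the pineal gland for 26. The larger median was 1.41 times the smaller at the midpoint of the genes, and 38 were within 1.5-fold, 16 at 1.5- to 2-fold and 6 at 2- to 3-fold. The rule itself capped this ratio. The libraries of the 2 tissues were separated completely in 2 genes (ENSOARG00020003620 and ENSOARG00020025613, named after their values were seen), both higher in the pineal gland, and in 0 genes higher in the pars tuberalis. The cap also limits such a separation, and the share over all genes is not given here.

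At the pars tuberalis end stood ENSOARG00020004721, whose libraries ran from 19.2 to 39.0 CPM (median 30.1), while its pineal libraries ran from 6.00 to 19.9 CPM (median 10.3), a ratio of 2.93. ENSOARG00020000770 followed with a ratio of 2.27 (medians 13.6 and 5.99 CPM). At the pineal end, ENSOARG00020008849 had a pars tuberalis median of 20.7 CPM and a pineal median of 61.2 CPM, a ratio of 0.338. ENSOARG00020025613 had a ratio of 0.353 and ran from 76.9 to 188 CPM in the pineal gland, with no overlap with its 15.0 to 68.8 CPM in the pars tuberalis. The most even gene was ENSOARG00020006656, at medians of 23.9 and 24.1 CPM, a ratio of 0.992, and ENSOARG00020016921 had a ratio of 1.02.

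Taken animal by animal, the rule was met by most of the genes in most rams. The same libraries gave the medians that chose the genes, so these counts describe the choice and are no separate support for it. When the 3 libraries of a single ram were used in place of the medians, 34 to 50 of the 60 genes met the whole rule in 11 of the rams, and 14 did in animal 4. Both tissues were above the hypothalamus of the same ram for 57 to 60 genes in those 11 rams and for 44 in animal 4. The rule was met in all 12 rams by 5 genes, in at least 11 rams by 12 genes and in under 7 rams by 18 genes. The 5 were ENSOARG00020008315, ENSOARG00020016974 and ENSOARG00020025738, described above, with ENSOARG00020001097 and ENSOARG00020023237, and are named because their number was small.

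The 6 active and the 6 inactive rams give a partial look at how well the choice carries over to other animals. On the active rams alone the rule gave 51 genes and on the inactive rams alone 86, of which 43 were in both sets. Of the 51 genes chosen in active rams, all 51 were above the hypothalamus in both tissues of the inactive rams and 46 were at least 4-fold above it. Their median fold was 6.00 in the rams that chose them and 8.31 in the others. Of the 86 chosen in inactive rams, all 86 were above the hypothalamus in the active rams, but 47 reached 4-fold there, and the median fold went from 6.20 to 4.26. The 2 sets of rams also differ in state, and the active set holds the hypothalamus library of animal 4. How far these entered the unequal counts was not tested.

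**Figure D2:**
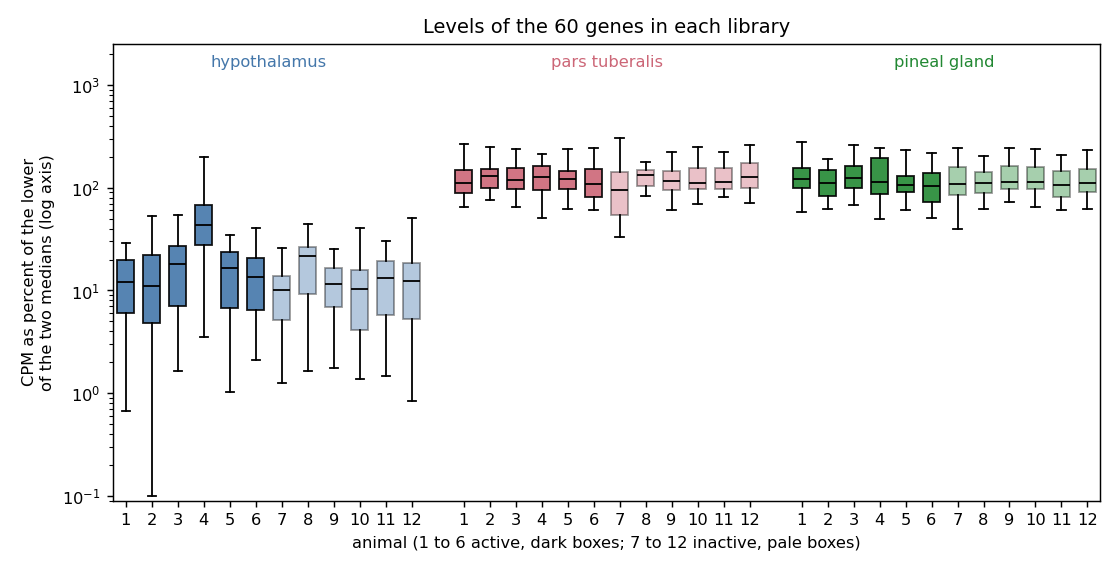
Boxes show the levels of the 60 genes in each of the 36 libraries, as CPM in percent of the lower of a gene's pars tuberalis and pineal medians on a log axis (line, median; box, quartiles; whiskers, 5th to 95th percentile; values under 0.1% drawn at 0.1%). The medians of 11 hypothalamus libraries lie between 10.1% and 21.5%, that of animal 4 at 43.5%, and those of the other tissues between 94.7% and 132%.

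The hypothalamus library of active animal 4 touched these genes most. With each gene expressed as a percent of the lower of its 2 medians, the median over the 60 genes was 43.5% in that library and 10.1% to 21.5% in the other 11 hypothalamus libraries. Animal 4 had the highest hypothalamus value for 42 of the 60 genes, whereas no other ram had the highest for more than 5. At least 2 times the hypothalamus median was reached by 44 genes, and 2 were below it. Against the pars tuberalis medians the genes spread widely in this library. They had a median of 33.5%, with 7 genes above 100%, 34 between 25% and 100%, and 19 at or under 25%, of which 5 were at or under 5%. By comparison, the 47 pars tuberalis genes stood at a median of 15.6% and the 67 pineal genes at 0.291% of their own level in the same library. Those sets were held to at least 50 times both other medians, and the 60 genes to at least 4 times the hypothalamus median. Their usual levels in the hypothalamus are therefore unlike.

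Single genes show how uneven this was. The IDs in this paragraph were picked after their values in that library had been seen. ENSOARG00020021947 was at 60.8 CPM in the hypothalamus of animal 4, above its pars tuberalis median of 30.6 CPM, and between 1.72 and 13.7 CPM in the other 11. In the pars tuberalis of the same ram it had 4.5 CPM, the lowest of the 12. ENSOARG00020011315 had 158 CPM in the hypothalamus of animal 4, against 5.89 to 37.1 CPM in the other 11 and a pars tuberalis median of 85.5 CPM. In contrast, ENSOARG00020005308 was at 10.6 CPM in that library, below its hypothalamus median of 14.4 CPM, and ENSOARG00020008315 was at 0.514 CPM, 2.01% of its pars tuberalis median. The share of pars tuberalis tissue in this library was not measured, and its part in these levels was not tested.

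**Figure D3:**
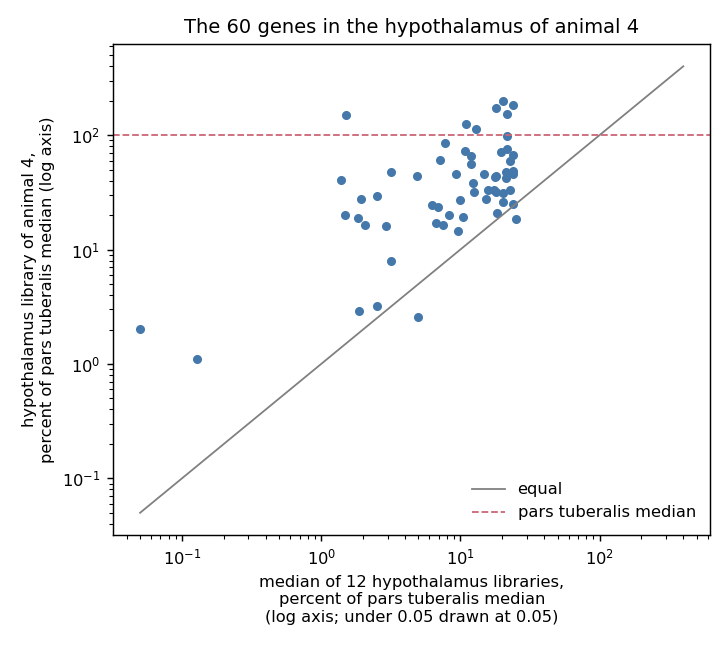
Each point is 1 of the 60 genes, with the median of the 12 hypothalamus libraries on the x axis and the hypothalamus library of animal 4 on the y axis, both in percent of the gene's pars tuberalis median on log axes (x values under 0.05% drawn at 0.05%). All but 2 points lie above the grey line of equal values and 7 lie above the dashed line at 100%.

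Between rams, the 60 genes varied more than genes in general. With the group means of the states removed, the SD of log2(CPM + 0.5) over the libraries of a tissue had a median of 0.48 in the pars tuberalis, against 0.33 over all 16773 tested genes, and 47 of the 60 were above that value. In the pineal gland the medians were 0.44 and 0.28, with 54 of the 60 above. In the hypothalamus they were 0.78 and 0.38, with 53 above, and 0.56 and 0.38 without animal 4. Without the pars tuberalis library of animal 7, which had the lowest value of the 12 in 23 of the genes and the highest in 11, the pars tuberalis medians were 0.38 and 0.26. The genes were not matched to the others for abundance in this comparison.

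The widest spread in the pars tuberalis belonged to ENSOARG00020005308 (SD of log2 level 1.15), from 12.7 CPM in active animal 5 to 164 CPM in active animal 1. ENSOARG00020011244 came next, with an SD of 1.14. The narrowest was ENSOARG00020005527, at 67.2 to 94.5 CPM and an SD of 0.15, followed by ENSOARG00020017000 at 62.1 to 93.6 CPM and 0.18. In the pineal gland ENSOARG00020006316 was the most variable, with an SD of 1.22 and values from 6.50 CPM in active animal 6 to 103 CPM in inactive animal 11, followed by ENSOARG00020022137 at 0.99. The steadiest there were ENSOARG00020025712 (0.22), between 26.8 and 47.1 CPM, and ENSOARG00020003620 (0.22), between 106 and 158 CPM. A gene that was steady in one tissue was not always so in the other, since ENSOARG00020005527 ran from 26.1 to 104 CPM in the pineal gland.

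The 60 genes did not move as a block from ram to ram. In the pars tuberalis the median correlation between pairs of them over the 12 rams was 0.08 and in the pineal gland 0.02. Their first principal component held 40.2% of their variance in the pars tuberalis, against 40.1% for all tested genes, and 28.4% in the pineal gland, against 33.5%. Without the pars tuberalis library of animal 7 the component held 30.8% there, against 27.4%, and the median pair correlation was 0.01. In the hypothalamus the median pair correlation was 0.41 and the first component held 47.5%, against 41.3% for all tested genes. Without animal 4 the pair correlation was 0.11 and the component held 32.6%, against 45.5%. The libraries of a tissue share the same 12 rams, so these values are descriptions.

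Nor did a ram with a high level in one of the tissues usually have a high level in the other. Across the 12 rams, the correlation of a gene's pars tuberalis and pineal levels, with state means removed, had a median of 0.15 over the 60 genes and 0.13 over all tested genes. It was above 0.5 for 10 of the 60 (16.7%), against 14.9% of tested genes, and above 0.8 for 4 (6.67%), against 2.31%. Besides the 2 genes described next, the 4 were ENSOARG00020006316 and ENSOARG00020023237. The lowest value was -0.74.

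The 2 genes with the highest correlation were ENSOARG00020009912 and ENSOARG00020011526. ENSOARG00020009912 fell into separate ranges, with animals 1, 2, 4, 10, 11 and 12 at 11.1 to 20.4 CPM in the pineal gland and 9.47 to 13.9 CPM in the pars tuberalis. Animals 3, 5, 6, 7, 8 and 9 were at 3.05 to 7.18 CPM and 2.64 to 6.37 CPM. Both ranges held active and inactive rams. Within the higher 6 rams Pearson's r was -0.18 (rho -0.20) and within the lower 6 it was 0.64 (rho 0.54), so no pooled value is given. ENSOARG00020011526 was graded, with pars tuberalis values from 12.7 CPM (animal 1) to 42.6 CPM (animal 4) and pineal values from 7.42 CPM (animal 7) to 35.5 CPM (animal 4). Its r was 0.87 (rho 0.85) over 12 rams, and 0.82 without animals 1 and 4. The likeness was not particular to these 2 tissues. Between hypothalamus and pineal gland its r was 0.80 (rho 0.85), and 0.60 without animals 4 and 7. Between hypothalamus and pars tuberalis its r was 0.61 (rho 0.64), and 0.39 without the same animals. As the gene was picked among 60 for its pars tuberalis and pineal correlation, no p is given.

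**Figure D4:**
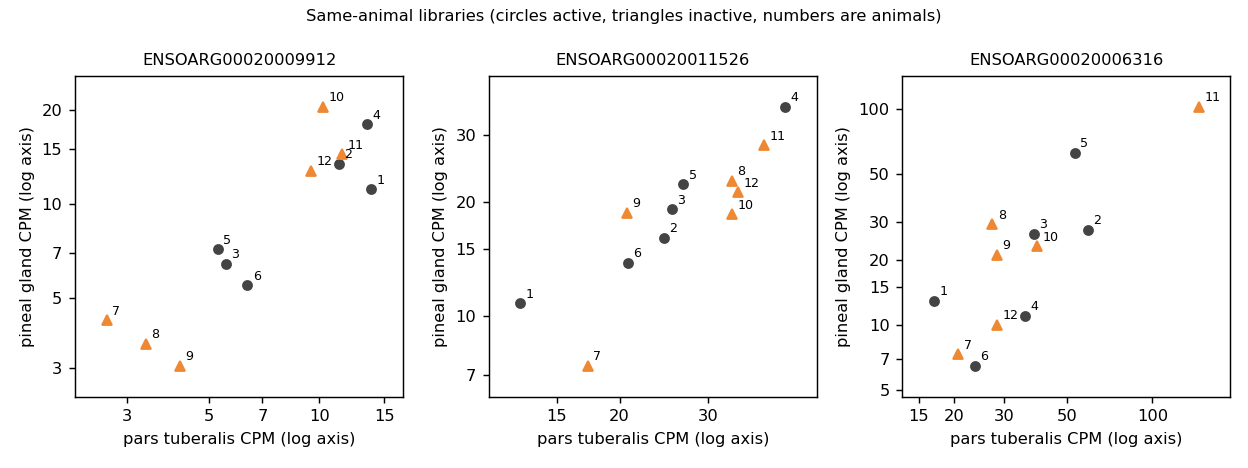
Pineal CPM is plotted against pars tuberalis CPM of the same ram on log axes for the 2 genes with the highest correlation and for ENSOARG00020006316, the most variable gene in the pineal gland (circles, active; triangles, inactive; numbers, animals). The left panel shows 2 ranges of 6 rams with a gap between them, the middle panel a graded relation, and the right panel animal 11 highest in both tissues, at 146 and 103 CPM.

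State was not used to choose the genes, so active and inactive rams could be compared. Counts were tested with edgeR's quasi-likelihood test over all 36 libraries, with Benjamini-Hochberg adjustment over all tested genes. In both tissues where these genes are high, no difference with sexual behaviour was detected. In the pars tuberalis 0 of 60 genes passed an adjusted p of 0.05 (0% of all tested genes did) and 0 of 60 an unadjusted p of 0.05 (3.54% of all). In the pineal gland 0 of 60 passed the adjusted threshold (0% of all) and 0 the unadjusted one (1.94% of all). DESeq2 also called 0 of the 60 in either tissue. The log2 differences, active minus inactive, had a median of 0.04 in the pars tuberalis, with 32 genes higher in active rams (48.5% of all tested genes were) and 28 lower. In the pineal gland the median was -0.00, with 30 higher (51.2% of all) and 30 lower. In neither tissue did any of the 60 genes have non-overlapping groups of rams. Of all tested genes in the pars tuberalis, 0.00596% were apart and higher in active rams and 0.0894% apart and lower. Those shares were 0.0119% and 0.0298% in the pineal gland.

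The gene with the largest state difference in the pars tuberalis, ENSOARG00020008849, still overlapped. Its active rams had 8.27, 9.44, 3.36, 9.26, 10.4 and 39.5 CPM for animals 1 to 6, and its inactive rams 37.2, 30.5, 12.6, 35.2, 28.8 and 35.5 CPM for animals 7 to 12. Active animal 6 lay above all inactive rams, while the other active rams lay below all of them. The log2 difference was -1.15 (SE 0.70, edgeR adjusted p = 0.967), and -1.91 without animal 6 (adjusted p = 0.679). Over its alternatives the adjusted p ran from 0.679 to 1.

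In the pineal gland that gene ran from 25.9 to 105 CPM (median 49.8) in active rams and from 38.5 to 99.0 CPM (median 76.6) in inactive rams, with overlap. The lowest unadjusted p of the 60 in the pars tuberalis was 0.0841, for ENSOARG00020015163, at 41.6 ± 11.9 CPM (SD, n = 6) in active and 56.9 ± 23.9 CPM (SD, n = 6) in inactive rams in the edgeR test (adjusted p = 0.967). On the side higher in active rams the lowest p belonged to ENSOARG00020011512 (log2 difference 0.26) and ENSOARG00020015276 (0.37), both with an edgeR adjusted p of 0.967.

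The pineal genes nearest to the threshold were ENSOARG00020016974 and ENSOARG00020000770 on the side higher in active rams and ENSOARG00020022137 and ENSOARG00020005527 on the other side. ENSOARG00020016974 had 12.5 to 45.6 CPM (median 23.0) in active and 10.6 to 22.7 CPM (median 16.3) in inactive rams. The groups overlapped, with active animal 4 highest, and the log2 difference was 0.55 (SE 0.35, edgeR adjusted p = 1). ENSOARG00020022137 had 3.44 to 32.9 CPM (median 10.0) in active and 5.16 to 29.9 CPM (median 23.0) in inactive rams. Active animal 6 was above all inactive rams and the log2 difference was -0.75 (SE 0.60, edgeR adjusted p = 1).

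The pars tuberalis and pineal counts of each ram were also summed, which makes the ram the replicate. Of the 60 genes 0 passed the adjusted threshold in edgeR (0% of 16677 tested genes) and 0 the unadjusted one (2.15%), and DESeq2 called 0. The log2 differences had a median of 0.01, with 33 genes higher in active rams (52.6% of all tested genes) and 27 lower. For 57 of the 60 the difference ± 1.96 SE lay within a 2-fold change in either direction. In the test over all 36 libraries 37 did so for the pars tuberalis and 37 for the pineal gland. That test also takes its spread from the hypothalamus libraries, so the fits differ in more than the summing. The lowest p for the sums was 0.0590, for ENSOARG00020016974, with a log2 difference of 0.53 (SE 0.26, edgeR adjusted p = 0.997). On the other side ENSOARG00020011315 had -0.39 (SE 0.22) and ENSOARG00020002724 had -0.21 (SE 0.12), with the same edgeR adjusted p.

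In the hypothalamus, where the genes are low, more of them leaned towards the active rams. There 0 of 60 passed an adjusted p of 0.05 in edgeR (0.0954% of all tested genes did), with a lowest adjusted p of 0.115, and 25 of 60 an unadjusted p of 0.05 (9.33% of all). This test takes a single spread per gene from the libraries of all tissues, yet the 60 genes varied most between hypothalamus libraries. The median SD of their log2 levels was 0.78 there, against 0.48 for pars tuberalis libraries and 0.44 for pineal ones. The edgeR SE and p for the hypothalamus, here and below, rest on that shared spread. The count of 25 became 12 when the hypothalamus libraries were fitted alone and 10 in voom with the animal as a random replicate block. Of the 25, 24 were higher in active rams (5.74% of all tested genes were) and 1 was lower. DESeq2 called 3 of the 60, and 138 over all tested genes. The log2 difference was above 0 for 55 of the 60 (52.3% of all) and had a median of 0.58, against 0.01 over all tested genes. The 60 differences are not independent, since the same 12 libraries enter each of them. Without the hypothalamus library of active animal 4 the median was 0.19, 41 genes were higher and 19 lower in active rams (15 changed from higher to lower and 1 from lower to higher), and 11 had an unadjusted p under 0.05, 10 of them higher. Shares of all tested genes are not given here for the fit of the hypothalamus libraries alone, for voom or for the fit without the library of animal 4. The groups of rams overlapped for all 60 genes (0.0238% of all tested genes were apart and higher in active rams, 0.0358% apart and lower). In the other active hypothalamus libraries the 47 pars tuberalis genes summed to 23.9 to 397 CPM, in the inactive ones to 17.2 to 238 CPM and in that of animal 4 to 2929 CPM. The part of the pars tuberalis genes in the state difference of the remaining libraries was not tested.

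**Figure D5:**
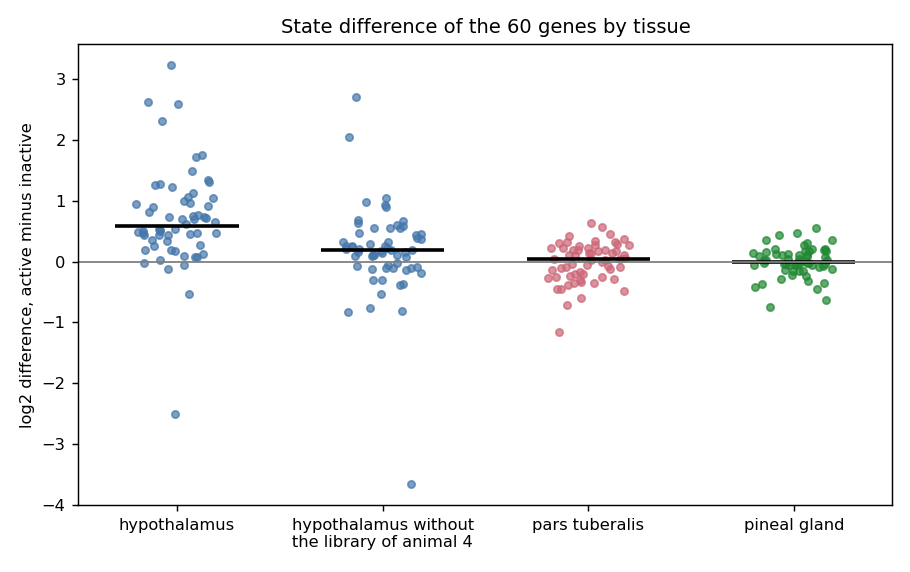
Each point is the log2 difference, active minus inactive, of 1 of the 60 genes in the hypothalamus, in the hypothalamus without the library of animal 4, and in each of the other tissues, with the median as a black bar. The median is 0.58 in the hypothalamus, 0.19 without animal 4, -0.00 in the pineal gland and 0.04 in the pars tuberalis.

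ENSOARG00020015454 had the lowest p in the hypothalamus. Its active rams had 16.3, 32.1, 17.1, 28.5, 22.6 and 12.8 CPM for animals 1 to 6 and its inactive rams 9.94, 16.9, 11.4, 12.0, 15.1 and 11.2 CPM for animals 7 to 12. Animal 2 and not animal 4 was highest here, and active animals 1 and 6 lay within the inactive range. The log2 difference was 0.70 (SE 0.18, edgeR adjusted p = 0.115), with 0.63 (adjusted p = 0.252) without the library of animal 4, and its adjusted p ran from 0.0237 to 0.999 over the alternatives, the lowest being that of DESeq2. ENSOARG00020011512 had 74.7 to 149 CPM (median 109) in active and 37.8 to 110 CPM (median 63.0) in inactive rams, with a log2 difference of 0.64 (SE 0.18, edgeR adjusted p = 0.146).

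A single gene of the 25 went the other way. ENSOARG00020008849 had 1.80, 0.615, 2.68, 11.5, 0.214 and 1.30 CPM in the hypothalamus of active animals 1 to 6 and 8.10, 28.2, 2.29, 53.0, 1.45 and 3.09 CPM in inactive animals 7 to 12. Inactive animals 8 and 10 were far above the rest, and active animal 4 was above 4 of the inactive rams. The log2 difference was -2.51 (SE 0.75, edgeR adjusted p = 0.182) and -3.66 without the library of animal 4. Over the alternatives its adjusted p ran from 0.0237 (DESeq2) to 0.999. ENSOARG00020023237 was the other gene listed on the lower side, at -0.53 (SE 0.51, edgeR adjusted p = 0.873) and levels under 1 CPM in every hypothalamus library.

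The difference in state effect between tissues was tested directly, again with a single spread per gene for all tissues. A test on 2 degrees of freedom that the effect is equal in the 3 tissues was passed by 0 of 60 genes after adjustment (0% of all tested genes) and by 11 of 60 at an unadjusted p of 0.05 (3.24% of all) in edgeR. The lowest p were 0.00429 for ENSOARG00020015454 and 0.0128 for ENSOARG00020025018, both with an adjusted p of 1. Without the hypothalamus library of animal 4, edgeR gave an unadjusted p under 0.05 for 3 of the 60, and ENSOARG00020025018 had an edgeR p of 0.102. With animal as a replicate block, 1 of the 60 had an unadjusted p of 0.05 and 0 were called. Shares of all tested genes at the unadjusted threshold are not given here for these alternatives. Between the pars tuberalis and the pineal gland alone, the state effect differed for 0 of 60 genes after adjustment (0% of all tested genes) and for 0 of 60 without it (1.44% of all) in edgeR. The difference, pars tuberalis minus pineal gland, was above 0 for 32 of the 60 (47.8% of all) and had a median of 0.06.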

How the data were processed

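The file used holds counts that the authors deposited without normalisation, whole numbers for 26478 Ensembl sheep gene IDs in 36 libraries. Per the labels' protocols, stranded messenger RNA libraries with molecular identifiers were read from both ends for 151 bases. STAR 2.7.8a, HTSeq, FastQC and edgeR are listed, per the submitters' processing notes, without their roles. Not given in the sources used here are the genome build, the annotation, the strand setting and the treatment of duplicate or multi-mapped reads, so overlapping and near-identical genes are uncertain. None of the IDs (0 of 26478) matched a symbol in the RefSeq gene table, so gene lists, markers and sequences were not used here. The genes and tests were chosen with earlier results of these data known.

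CPM were computed from column totals. Tests used edgeR 4.0.16 in R 4.3.3 (filterByExpr with a minimum count of 10, TMM scaling, robust quasi-likelihood fit, 30 residual degrees of freedom). The alternatives used limma 3.58.1, DESeq2 1.42.0, other thresholds of the rule, and each ram left out in turn. Scripts were tested on simulated data. At most 2 IDs per direction are named per comparison, by fixed rules (widest gap to the hypothalamus, extreme ratio, lowest p, extreme SD, most counts, highest r), except where stated. Replicates are different rams per the labels, and same-numbered libraries come from the same ram. Over 16773 genes, their deviations from group means correlated at a median of 0.22 between pars tuberalis and pineal gland, 0.05 between hypothalamus and pars tuberalis, and 0.18 between hypothalamus and pineal gland.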

Additional observations from a re-analysis of the deposited data

Results flagged for a closer look

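In a set of 30 groups of 6 libraries (the median level of the 60 genes, and genes named for their state difference), 9 held a library set apart from the other 5 by Dixon's criterion. The criterion is set for about 1 group in 20 when values are independent and normally distributed. These groups share libraries and hold genes picked for their state difference, so the 9 cannot be set against that rate. The median level of the 60 genes was set apart in the active hypothalamus by animal 4, at 43.5% of the lower tissue median, and in the inactive hypothalamus by animal 8, at 21.5%.

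ENSOARG00020008849 had 3 such libraries. They were active animal 4 in the hypothalamus (11.5 CPM), active animal 6 in the pars tuberalis (39.5 CPM), and, as the lowest, inactive animal 9 in the pars tuberalis (12.6 CPM). ENSOARG00020005527 had 2 in the pineal gland, the lowest active library in animal 3 (26.1 CPM) and the highest inactive one in animal 12 (104 CPM). ENSOARG00020022137 was highest in the pineal gland of active animal 6 (32.9 CPM). ENSOARG00020011512 was lowest in the pars tuberalis of inactive animal 7 (223 CPM), the library that also had the lowest level of pars tuberalis genes.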

How the results depend on the processing

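The number of genes that met the rule was 127 with a 3-fold in place of a 4-fold lead over the hypothalamus, 40 with 5-fold, and 46 under TMM scaling or size factors, of which 45 were among the 60. TMM moved the median log2 level of all genes by -0.12 in the pars tuberalis, against 0.03 and 0.06 in the pineal gland and hypothalamus. Leaving out 1 ram gave 56 to 66 genes, of which at least 51 were among the 60.

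For state in the hypothalamus, DESeq2 called 3 of the 60, ENSOARG00020006370, ENSOARG00020008849 and ENSOARG00020015454. Without animal 8 edgeR called 2, ENSOARG00020019761 and ENSOARG00020025018. The share of all tested genes called in that single fit is not given here, so the 2 cannot be set against it. ENSOARG00020006370 and ENSOARG00020019761 are named after their values were seen. Without the hypothalamus library of animal 4 the log2 difference of ENSOARG00020006370 went from 2.30 to 0.20. Leaving out each ram in turn gave 0 to 2 called genes and 11 to 29 at an unadjusted p under 0.05. That count was 12 in a fit of the 12 hypothalamus libraries alone (57 of the 60 tested), 10 with the animal as a random replicate block, and 11 without animal 4 or its hypothalamus library. Shares of all tested genes at the unadjusted threshold are not given here for these alternatives. The cause was not tested. The median log2 difference ran from 0.19 to 0.70. Over all tested genes, edgeR called 16 for state in the hypothalamus, DESeq2 138, voom with the block 1, the fit of that tissue alone 0, and edgeR 0 to 54 with 1 ram left out. DESeq2 called 20 genes in the pineal gland, 1 in the pars tuberalis and 2 for the test over 3 tissues, where edgeR called 0.

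In the other state tests 0 of the 60 were called under every alternative run, and 0 to 4 had an unadjusted p under 0.05 (1 to 14 for the test over 3 tissues). The replicate block changed no call. The genes named for their state difference kept its direction under every alternative run. The median difference of the 60, close to 0 outside the hypothalamus, did not. It changed sign in 10 of 18 alternatives in the pineal gland (-0.03 to 0.03), 1 of 18 in the pars tuberalis (-0.02 to 0.06), 3 of 15 for the sums (-0.04 to 0.04) and 3 of 16 for pars tuberalis minus pineal gland (-0.04 to 0.08). Counts were few for some genes in the hypothalamus, such as ENSOARG00020008315 with 23, and depth was not varied.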
